A study of Mus musculus with 12 samples.

Results

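The transcripts described here are small nucleolar RNAs and Y RNAs, measured on mouse gene expression arrays in plasma cells of the bone marrow. They were chosen by name: a probe set was taken when its annotated symbol began with Snora or Snord and a number, or was Rny1 or Rny3. Of 35556 probe sets in the series, 94 met this rule. Of these, 58 name a single gene, and 56 were left after rows with identical values were kept once: 22 of the H/ACA class (20 symbols), 32 of the C/D class (31 symbols) and 2 Y RNAs. The other 36 matching rows list several genes and hold 18 distinct rows of values, which are described apart from the rest. Values are log2 RMA values, so a difference of 1 is a 2-fold difference.

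Small nucleolar RNAs guide the chemical modification of other RNAs, chiefly ribosomal RNA, in the nucleolus. C/D box RNAs direct 2′-O-methylation by the methyltransferase fibrillarin, and H/ACA box RNAs direct pseudouridylation by the enzyme dyskerin. In mammals most of them are cut out of introns of a host gene, often one that encodes a ribosomal protein or a translation factor, while U8 (Snord118) has a gene of its own and acts in processing of the large-subunit ribosomal RNA. Y RNAs bind the Ro60 and La proteins. Plasma cells make antibody at a high rate and depend on a large supply of ribosomes.

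Zbtb32-/- and wild-type (Zbtb32 +/+) cells were compared with 6 arrays each, numbered 1 to 6 in the labels and called biological replicates in the series text. Zbtb32 encodes a transcription factor of the BTB zinc finger family. Both groups were CD45.2 splenocytes of donors immune to NP-CGG, a hapten on a carrier protein, which were given to CD45.1 recipients that were then challenged with NP-CGG. The sort after 7 days took marrow cells that were CD138+, CD45.2+ and NP+ and lacked B220, Ly6g, CD11b and CD45.1. The ages of the animals and the deleted part of Zbtb32 are not given in the labels. The single Zbtb32 probe set read 6.47 at the lowest, 6.53 at the median and 6.73 at the highest in Zbtb32-/- cells, against 6.39, 6.68 and 6.88 in wild-type cells, a difference of -0.11 (SE 0.09), so it does not check the genotype labels. The median of an array lay between 6.28 and 6.43, and the number of arrays limits the precision. Replicates 4 to 6 also stood apart from replicates 1 to 3 in both genotypes. The labels do not name these sets as batches, and each holds 3 arrays of each genotype.

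RefSeq records (assembly GRCm38.p6) were found for all 56 probe sets. C/D RNAs had a median length of 68 bases (45 to 148) and H/ACA RNAs of 125 bases (61 to 205). Of the 56, 53 lie inside the span of another gene, with strand not considered, while Rny1, Rny3 and Snord118 do not. A probe set for an RNA made from an intron cannot tell the mature small RNA from unspliced host RNA. A pyrimidine run at the start of transcription is a known mark of genes for ribosomal proteins and of several snoRNA hosts. Among the 31 hosts with a start sequence in the RefSeq table, 11 (35.5%) had a run of at least 8 C or T within 10 bases of the annotated start, on the gene's own strand, against 16.1% of 27025 genes. The 4 starts shown are those read here for hosts of members that passed between the replicate sets or had an unadjusted p under 0.05 between the genotypes, as described below. They run from 30 bases before the annotated start to 20 bases of the transcript, with the run in capitals where there is one.
2410006H16Rik, host of Snord49a and Snord49b, chr11:62602847-62602896, plus strand: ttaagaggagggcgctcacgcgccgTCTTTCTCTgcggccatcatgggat
Eef2, host of Snord37, chr10:81176601-81176650, plus strand: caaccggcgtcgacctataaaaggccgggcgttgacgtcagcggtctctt
Rps12, host of Snora33, chr10:23787190-23787239, minus strand: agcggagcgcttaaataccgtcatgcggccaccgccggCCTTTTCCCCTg
Ncl, host of Snora75 and Snord82, chr1:86359436-86359485, minus strand: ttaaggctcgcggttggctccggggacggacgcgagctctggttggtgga
The starts of 2410006H16Rik and Rps12 hold such a run, and those of Eef2 and Ncl do not at these positions.

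The small RNA probe sets varied far more between arrays than most of the table. Their SD over the 12 arrays had a median of 0.62, against 0.23 over all 21713 distinct probe sets that name 1 gene. It was above 1 for 12 of the 56 (21.4%), against 1.06% of all probe sets. The median SD was 0.70 for C/D RNAs and 0.49 for H/ACA RNAs. Snord61, a C/D RNA within the gene Rbmx, had the largest SD of the members, 2.27. It read 7.93, 8.32, 5.87, 3.06, 8.05 and 9.70 in Zbtb32-/- replicates 1 to 6, against 7.46, 9.45, 7.46, 9.65, 9.45 and 3.46 in wild-type replicates 1 to 6. A single array of each genotype, Zbtb32-/- replicate 4 and wild-type replicate 6, lay near 3, and the remaining 10 lay between 5.87 and 9.70. Snord73b, within the ribosomal protein gene Rps3a1, had an SD of 1.32 and read 8.50 in Zbtb32-/- replicate 4 and between 3.96 and 6.63 on the other arrays. Wild-type replicate 2 held the highest or the lowest value for 39.3% of the 56 probe sets, against 29.2% of all probe sets tested.

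**Figure D1:**
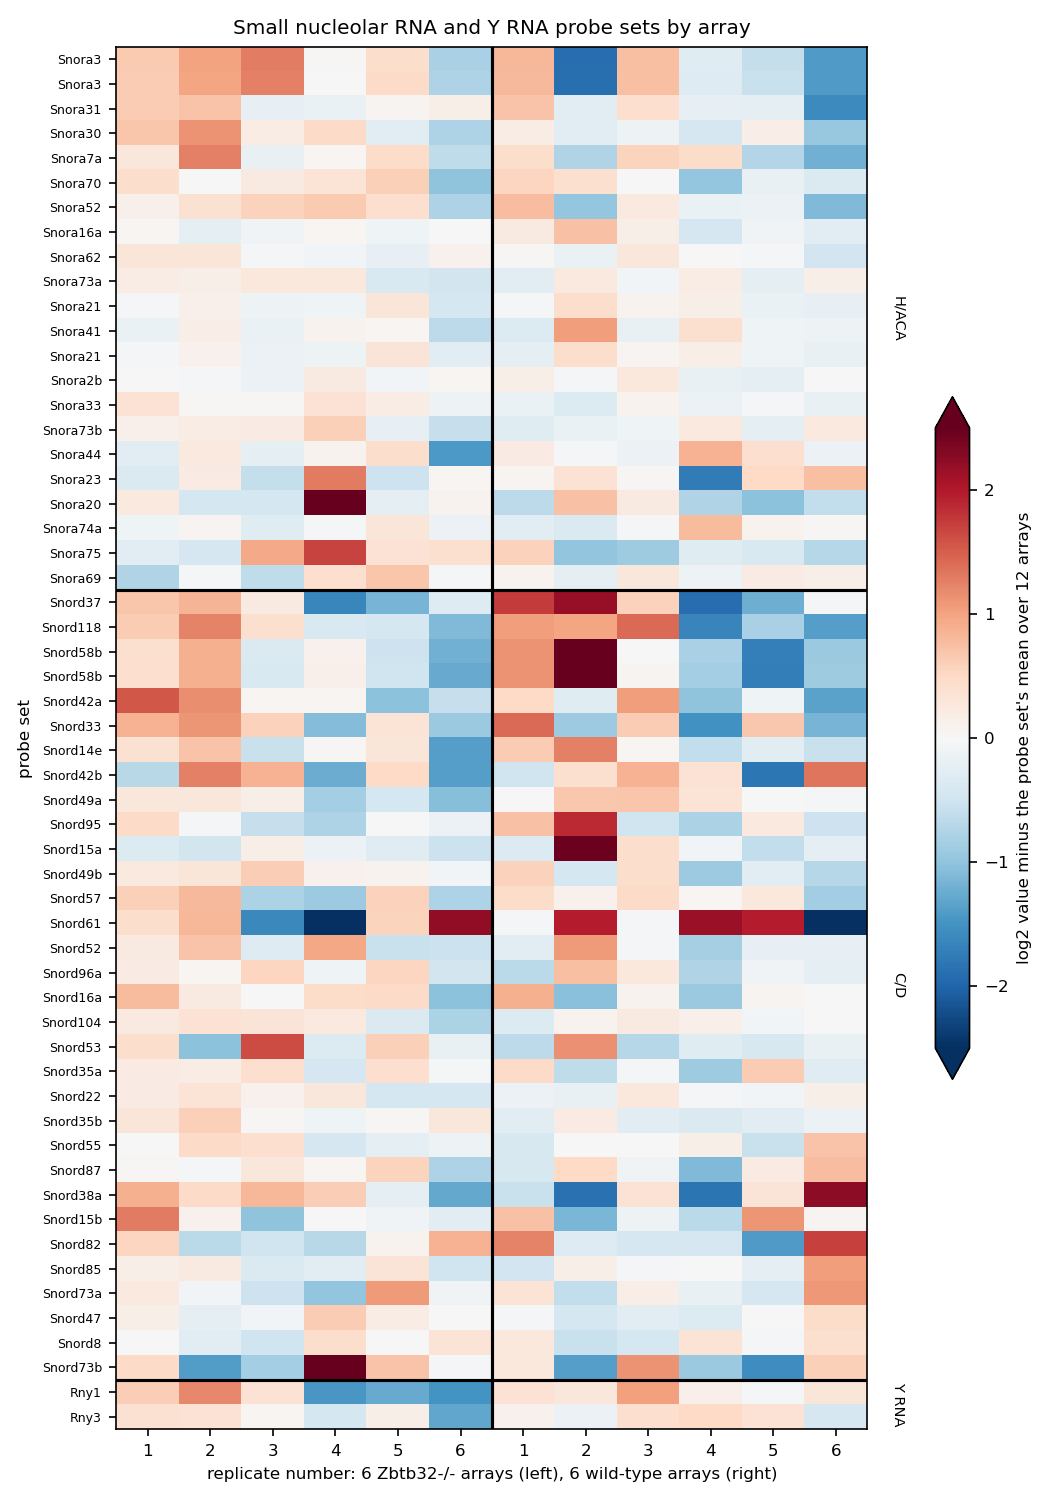
Each row is 1 of the 56 probe sets and each column 1 array, with the 6 Zbtb32-/- arrays on the left and the 6 wild-type arrays on the right. Colour gives the log2 value minus the probe set's mean over 12 arrays, and rows are ordered within a class by the difference of replicates 4 to 6 minus 1 to 3. Rows such as Snord61 (SD 2.27) hold single arrays far from the rest.

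No small nucleolar RNA or Y RNA passed the test between the genotypes: 0 of 56 passed an adjusted p of 0.05 with limma, and 0% of the 21713 probe sets tested did. The smallest adjusted p over all of them was 0.937. At an unadjusted p under 0.05 there were 4 members, against 3.95% of all probe sets. Of these, 3 had a positive difference, against 2.22% of all probe sets, and 1 a negative one, against 1.72%. Differences, Zbtb32-/- minus wild type, were positive for 33 and negative for 23 members, with a median of 0.018 against -0.011 over all probe sets. The values of the genotypes overlapped for all 56 members. Non-overlap was rare in the whole table too, at 0.0553% of probe sets higher and 0.0691% lower in Zbtb32-/- cells. The 95% interval of the difference excluded a 2-fold change for 31 of the 56 members (55.4%), against 95.3% of all probe sets, so a change of that size cannot be read as absent for the others. These intervals are from the model with genotype alone, where a difference between the replicate sets described below widens them.

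Among H/ACA RNAs 15 of 22 differences were positive, with a median of 0.119. The class mean per array ran from 6.65 to 7.43 in Zbtb32-/- cells and from 6.58 to 7.17 in wild-type cells, at 7.13 ± 0.26 and 6.91 ± 0.22 (SD, n = 6 each). The difference of these means was 0.22 (SE 0.14). Computed within the sets it came to 0.31 for replicates 4 to 6, against 0.13 for replicates 1 to 3. Among C/D RNAs 18 of 32 differences were positive, and the class mean was 6.93 ± 0.31 in Zbtb32-/- cells and 6.92 ± 0.34 in wild-type cells (SD, n = 6 each), a difference of 0.01 (SE 0.19). The ranges of the arrays overlapped for each class.

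**Figure D2:**
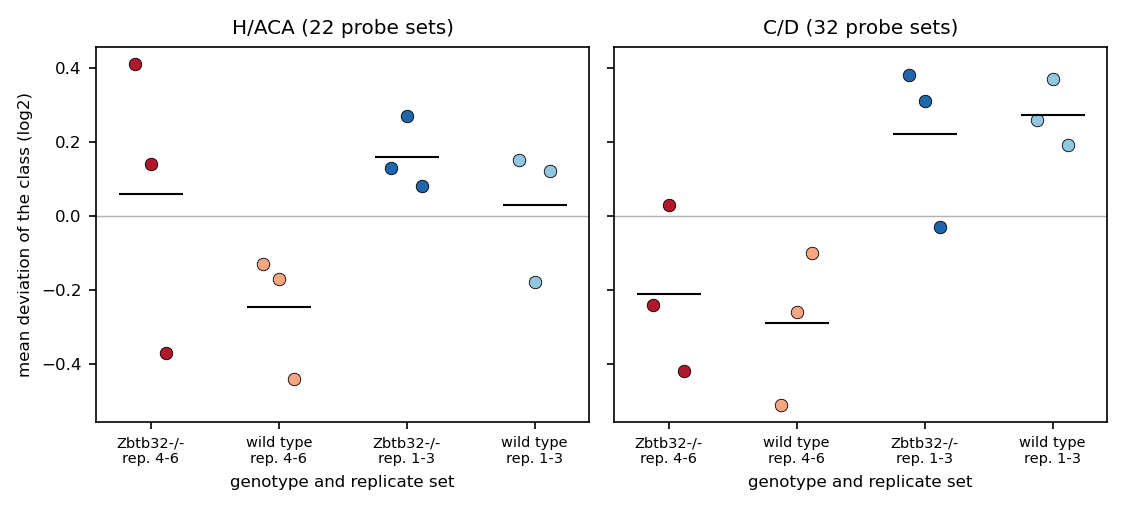
Each point is 1 array, the line is the mean of 3 arrays, and the y axis is the mean over the probe sets of a class of the log2 value minus the probe set's own mean. In both classes replicates 4 to 6 average below replicates 1 to 3 in both genotypes, by more for C/D RNAs (right) than for H/ACA RNAs (left). The arrays of the sets overlap in both classes, and the difference between the classes was not tested.

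The 3 members with a positive difference at an unadjusted p under 0.05 came from different hosts. Snord35b, a C/D RNA, measured 6.48 at the lowest, 6.75 at the median and 7.18 at the highest in Zbtb32-/- cells, against 6.22, 6.32 and 6.80 in wild-type cells. The groups overlapped, with only wild-type replicate 2 above the lower Zbtb32-/- arrays, and the difference was 0.38 (95% interval 0.09 to 0.66, limma, unadjusted p = 0.0141). Snora75, an H/ACA RNA within the nucleolin gene Ncl, had 4.93, 5.74 and 7.05 in Zbtb32-/- cells, against 4.37, 4.80 and 5.93 in wild-type cells. Its difference was 0.90 (0.15 to 1.65, limma, unadjusted p = 0.0216), while Ncl itself differed by 0.02. Snora33, within the ribosomal protein gene Rps12, had 9.24, 9.46 and 9.72 in Zbtb32-/- cells, against 9.01, 9.21 and 9.44 in wild-type cells, a difference of 0.27 (0.02 to 0.53, limma, unadjusted p = 0.0368). The same difference was -0.06 for Rps12. The adjusted p of all 3 was 0.937.

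Snord49a was the member with a negative difference at that threshold, and its neighbour in the same host gave the opposite sign. Snord49a had 5.53, 6.43 and 6.88 at the lowest, median and highest in Zbtb32-/- cells, against 6.55, 6.75 and 7.28 in wild-type cells, a difference of -0.55 (-1.09 to -0.01, limma, unadjusted p = 0.0475). Snord49b had 7.24, 7.49 and 7.93 in Zbtb32-/- cells, against 6.40, 6.95 and 7.90 in wild-type cells, a difference of 0.43 (-0.09 to 0.96, limma, unadjusted p = 0.0957). Computed within the sets, the difference of Snord49a was -0.88 for replicates 4 to 6 and -0.22 for replicates 1 to 3. That of Snord49b was 0.68 and 0.19. Neither RNA passed the adjusted threshold.

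The next positive values on the list were those of Snord49b, the C/D RNA given above, and of the H/ACA RNAs Snora3, Snora30, Snora52, Snora20 and Snora31. The 2 probe sets of Snora3 gave 0.87 and 0.88 with nearly the same values on every array, so they are not independent. Snora20 gave 0.71, Snora30 0.47, Snora52 0.46 and Snora31 0.40. Snora20 read 7.96 in Zbtb32-/- replicate 4 and 4.63 to 5.32 on the other Zbtb32-/- arrays, and without that array its difference was 0.20. Within replicates 1 to 3 its difference was -0.30. The next negative values were -0.68 for Rny1, -0.55 for Snord15a, -0.38 for Snora44, -0.34 for Snord95, -0.27 for Rny3, -0.23 for Snora41, -0.11 for Snora16a and -0.09 for a probe set of Snora21. Snord37 had -0.44 with the widest interval of these, -1.88 to 1.00. Single arrays carried much of several of these genotype differences. Without wild-type replicate 2 the difference was -0.11 for Snord15a, -0.003 for Snord95, -0.04 for Snora41, 0.03 for Snora16a, -0.01 for Snora21 and -0.05 for Snord37. Without Zbtb32-/- replicate 6 it was -0.13 for Snora44, -0.03 for Rny3, -0.12 for Snora41 and -0.01 for Snora21. For Rny1 it was -0.45, -0.49 and -0.45 without Zbtb32-/- replicate 4, 5 or 6, so these arrays moved it alike. Without wild-type replicate 6 it was 0.12 for Snora31 and 0.28 for Snora52, and without Zbtb32-/- replicate 2 it was 0.30 for Snora30. Over all left-out arrays Snord37 ran from -0.87 to -0.05, Snord95 from -0.53 to -0.003, Snora16a from -0.20 to 0.03 and Snora21 from -0.16 to -0.01. Unadjusted limma p-values of all these members in the full fit lay between 0.088 and 0.523.

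Replicates 4 to 6 had lower values of several C/D RNAs and of Rny1 than replicates 1 to 3. With genotype in the model, 6 of 56 members were lower at an adjusted p of 0.05 (limma), against 3.68% of all probe sets, and 0 were higher, against 3.97%. In either direction 7.65% of all probe sets passed. The 6 were Snord118, Snord37, Rny1, Snord42a, Snord49a and a probe set of Snord58b: 5 of 32 C/D probe sets, 0 of 22 H/ACA probe sets and 1 of 2 Y RNAs. At an unadjusted p under 0.05 there were 15 members, against 26.0% of all probe sets. Of these, 3 were positive (12.3% of all probe sets) and 12 negative (13.7%), and the H/ACA class had 2 of each sign. The set difference, replicates 4 to 6 minus 1 to 3, was negative for 41 of 56 members with a median of -0.275, against -0.014 over all probe sets. Leaving out Zbtb32-/- replicate 1, 2 or 6 brought the count called lower to 3 each time. It was 11 when wild-type replicate 2 was omitted and 2 when wild-type replicate 3 was.

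Per array, the C/D class mean ran from 6.42 to 6.96 in replicates 4 to 6 and from 6.90 to 7.31 in replicates 1 to 3. It averaged 6.67 ± 0.20 and 7.17 ± 0.15 (SD, n = 6 each), a difference of -0.50 (SE 0.10). Within Zbtb32-/- cells this difference was -0.43 and within wild-type cells -0.56. The H/ACA class mean was 6.93 ± 0.32 in replicates 4 to 6 and 7.11 ± 0.15 in replicates 1 to 3 (SD, n = 6 each), a difference of -0.18 (SE 0.14). The difference between the classes was not tested.

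Markers of cell types moved with the same sets. The mean of 9 plasma cell markers ran from 10.36 to 10.90 in replicates 4 to 6 and from 11.01 to 11.27 in replicates 1 to 3. All 9 differences were negative and 3 passed: Prdm1 (-0.75), Xbp1 (-0.31) and Derl3 (-0.74), adjusted limma p between 0.0138 and 0.0292. The mean of 10 neutrophil markers ran from 9.73 to 12.13 in replicates 4 to 6 and from 7.99 to 10.76 in replicates 1 to 3, with 10 positive differences and 2 that passed, S100a8 (1.24) and S100a9 (1.05). Of 7 monocyte markers, 6.81 to 8.29 against 6.62 to 7.52 in the mean, 3 passed as higher, Lyz2 (1.64), Ccr2 (0.75) and F13a1 (0.48). Of 7 B cell markers, 7.86 to 8.85 against 7.27 to 8.23 in the mean, Cr2 (0.77) did. The 6 erythroid markers (6.54 to 7.37 against 6.04 to 8.07) had 1 that passed as lower, Alas2 (-0.80). Of the 8 T and NK markers (5.47 to 6.53 against 5.43 to 5.87) none did; 3 of them had an unadjusted limma p under 0.05. Between the genotypes no marker of these lists had an unadjusted limma p under 0.05, and the neutrophil mean ran from 8.91 to 12.13 in Zbtb32-/- cells and from 7.99 to 10.81 in wild-type cells. The part of these cell types in the small RNA values was not tested. In bulk samples fewer cells of a type and less RNA per cell cannot be told apart.

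Snord118, the U8 RNA, had the smallest p of the members. It measured 6.57, 6.51 and 5.85 in Zbtb32-/- replicates 4 to 6 and 5.31, 6.15 and 5.58 in wild-type replicates 4 to 6. Replicates 1 to 3 measured 7.59, 8.20 and 7.36 in Zbtb32-/- cells and 7.99, 7.94 and 8.36 in wild-type cells. All 6 arrays of replicates 4 to 6 lay below all 6 of replicates 1 to 3, and the difference was -1.91 (95% interval -2.42 to -1.40, limma, adjusted p = 0.00123), which is 3.76-fold lower. It was -2.42 within wild-type cells (limma, adjusted p = 0.00616) and -1.40 within Zbtb32-/- cells, where it did not pass (limma, adjusted p = 0.182).

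Snord37, a C/D RNA within the elongation factor gene Eef2, was the other member whose sets did not overlap, so 2 of 56 members lay apart downward, against 2.24% of all probe sets, and 0 upward, against 2.35%. It measured 3.74, 4.21 and 5.05 in Zbtb32-/- replicates 4 to 6 and 3.46, 4.14 and 5.34 in wild-type replicates 4 to 6. On the arrays of replicates 1 to 3 it measured 6.07, 6.22 and 5.60 in Zbtb32-/- cells and 7.12, 7.54 and 5.94 in wild-type cells. The difference was -2.09 (-2.87 to -1.31, limma, adjusted p = 0.00815). All values in replicates 4 to 6 lay below 5.49, the 25th percentile of all probe sets, so no fold is given. Its host Eef2, whose start is printed above, was also lower, by a smaller step: the difference was -0.43 (SE 0.11, limma, adjusted p = 0.0353).

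Snord42a, within the ribosomal protein gene Rpl23a, measured 7.98, 6.91 and 7.35 in Zbtb32-/- replicates 4 to 6 and 6.93, 7.83 and 6.59 in wild-type replicates 4 to 6. Among replicates 1 to 3 the values were 9.48, 9.10 and 7.98 in Zbtb32-/- cells and 8.43, 7.64 and 8.98 in wild-type cells. The sets overlapped, and the difference was -1.34 (-2.02 to -0.65, limma, adjusted p = 0.0275). It no longer passed when Zbtb32-/- replicate 1, 2 or 6 or wild-type replicate 1, 3, 4 or 6 was left out (adjusted limma p between 0.0501 and 0.0669), with differences of -1.33 to -1.18. Snord42b, in the same host, had a difference of -0.74 (SE 0.54) that did not pass, and Rpl23a one of 0.08.

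Snord49a, from the noncoding host 2410006H16Rik, measured 5.73, 6.14 and 5.53 in Zbtb32-/- replicates 4 to 6 and 6.92, 6.58 and 6.55 in wild-type replicates 4 to 6. Its values in replicates 1 to 3 were 6.88, 6.87 and 6.73 in Zbtb32-/- cells and 6.57, 7.27 and 7.28 in wild-type cells. The lowest 3 arrays are those of Zbtb32-/- replicates 4 to 6. The set difference was -0.69 (-1.06 to -0.32, limma, adjusted p = 0.0316). It was -1.02 within Zbtb32-/- cells (limma, adjusted p = 0.125) and -0.36 within wild-type cells (limma, adjusted p = 0.501). The pooled value did not pass when Zbtb32-/- replicate 1, 2, 3 or 6 or wild-type replicate 3 or 5 was left out (adjusted limma p between 0.0520 and 0.0703). Snord49b of the same host had a set difference of -0.59 (SE 0.19, limma, adjusted p = 0.0723), which passed only without wild-type replicate 2 among left-out single arrays (-0.70, limma, adjusted p = 0.0350).

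Snord58b is represented by 2 probe sets with close values on all arrays, and only 10456717 passed, at the edge of the threshold. It measured 5.64, 5.01 and 4.25 in Zbtb32-/- replicates 4 to 6 and 4.66, 3.78 and 4.62 in wild-type replicates 4 to 6. In replicates 1 to 3 it measured 5.92, 6.40 and 5.12 in Zbtb32-/- cells and 6.62, 8.46 and 5.57 in wild-type cells. Wild-type replicate 2 was the highest array by a wide margin. The set difference was -1.69 for both probe sets, with an adjusted limma p of 0.04998 for 10456717 and 0.0532 for 10414659. The call of 10456717 was lost when Zbtb32-/- replicate 1, 2, 5 or 6 or any wild-type replicate but 2 was left out. Probe set 10414659 passed without Zbtb32-/- replicate 4 (-1.93, limma, adjusted p = 0.0345) and without wild-type replicate 2 (-1.23, limma, adjusted p = 0.0435).

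**Figure D3:**
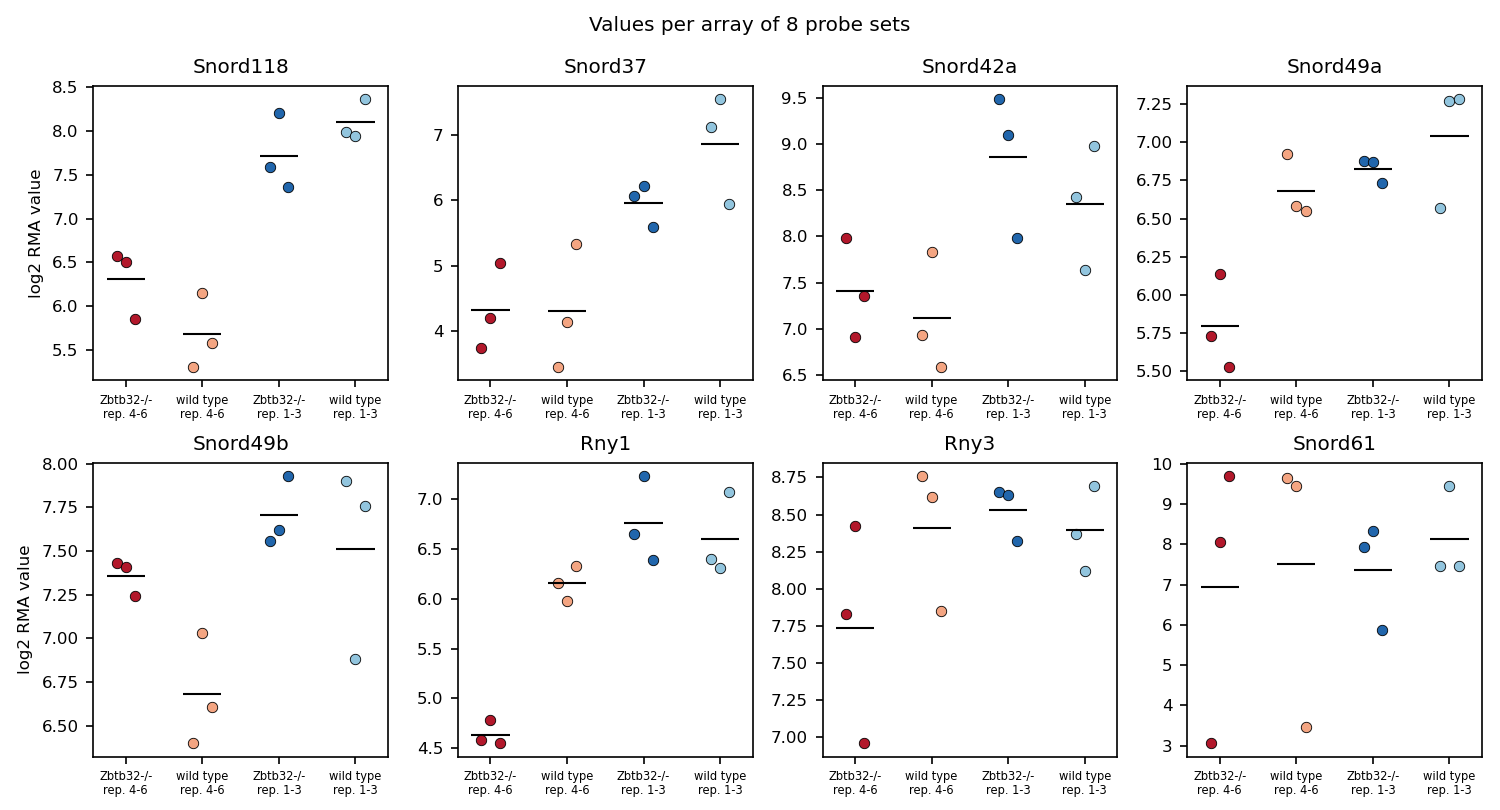
Log2 RMA values per array of 8 probe sets, in 4 groups of 3 arrays by genotype and replicate set, with the mean of each group as a line. Snord118 and Snord37 lie lower in replicates 4 to 6 in both genotypes, while the low values of Rny1 (4.55 to 4.78) are those of Zbtb32-/- replicates 4 to 6. The y axes differ between panels.

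Of the Y RNAs, Rny1 passed between the sets and Rny3 did not. Rny1 measured 4.58, 4.78 and 4.55 in Zbtb32-/- replicates 4 to 6 and 6.16, 5.98 and 6.33 in wild-type replicates 4 to 6. Replicates 1 to 3 measured 6.65, 7.23 and 6.39 in Zbtb32-/- cells and 6.40, 6.31 and 7.07 in wild-type cells. The 3 low arrays are all Zbtb32-/- replicates 4 to 6, and no other array lay below 5.98. The set difference was -1.28 (-1.89 to -0.67, limma, adjusted p = 0.0220). It was -2.12 within Zbtb32-/- cells (limma, adjusted p = 0.0268) and -0.44 within wild-type cells (limma, adjusted p = 0.388). Without wild-type replicate 3 the pooled value was -1.27 and did not pass (limma, adjusted p = 0.0510).

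The genotype difference of Rny1 was -1.52 over replicates 4 to 6 (limma, adjusted p = 0.0981) and 0.16 over replicates 1 to 3. The term for the genotype difference in replicates 4 to 6 minus that in replicates 1 to 3 was -1.68 (95% interval -2.39 to -0.98). Its unadjusted limma p was 0.000234, the smallest among the 56, and its adjusted p was 0.999. This term passed for 0 of 56 members and 0% of all probe sets. At an unadjusted p under 0.05 it gave 7 members, against 3.86% of all probe sets. Of these, 5 were positive (2.12% of all probe sets) and 2 negative (1.74%). The next smallest p-values were those of Snora16a (0.70, limma, unadjusted p = 0.00652) and Snord118 (1.01, limma, unadjusted p = 0.0243).

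Rny3 measured 7.83, 8.42 and 6.96 in Zbtb32-/- replicates 4 to 6 and 8.76, 8.62 and 7.85 in wild-type replicates 4 to 6. On the arrays of replicates 1 to 3 it measured 8.65, 8.63 and 8.32 in Zbtb32-/- cells and 8.37, 8.12 and 8.69 in wild-type cells. Its set difference was -0.39 (-0.95 to 0.17, limma, adjusted p = 0.366) and did not pass. It was -0.79 within Zbtb32-/- cells and 0.02 within wild-type cells. The genotype difference of Rny3 was -0.67 in replicates 4 to 6, against 0.14 in replicates 1 to 3. Its product term was -0.81 (95% interval -1.87 to 0.24). These values have the signs of those of Rny1, apart from the set difference in wild-type cells, and whether the Y RNAs differ was not tested. Of the proteins that bind Y RNAs, Ro60 had a set difference of -0.01, Ssb (La) of -0.06 and Ncl (nucleolin) of 0.19, and their genotype differences were -0.02, 0.10 and 0.02. None of the 3 passed in either comparison, and none had an unadjusted limma p under 0.05.

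Among the remaining C/D RNAs, Snord33, within Rpl13a, had a set difference of -1.23 (SE 0.43, limma, adjusted p = 0.0980). Snord14e, within the chaperone gene Hspa8, had one of -0.83 (SE 0.31, limma, adjusted p = 0.112). Neither passed, but Snord33 did without wild-type replicate 2 (-1.54, limma, adjusted p = 0.0359) or 5 (-1.55, limma, adjusted p = 0.0421). Positive values were smaller and did not pass either. Snord8, in the span of the chromatin remodeller gene Chd8, had the smallest p among them. It read 7.44, 7.82 and 7.92 at the lowest, median and highest in replicates 4 to 6, against 6.92, 7.12 and 7.73 in replicates 1 to 3, a difference of 0.50 (SE 0.16, limma, adjusted p = 0.0714). Without wild-type replicate 1 it was 0.62 and passed (limma, adjusted p = 0.0423). Snora74a had 0.34, Snora69 0.43, Snord47 within Gas5 0.31, Snora75 0.35 and Snord73b 0.60. Snord73a (0.15), Snord85 (0.13), Snora23 (0.10) and Snora44 (0.07) were close to 0.

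The set differences of host genes were mostly smaller in size than, or equal to, those of the RNAs within them, in 25 of 31 pairs. Of 43 hosts found by position, 25 had a probe set of their own that names 1 gene, in 31 pairs with a member. Their set differences ran from -0.43 to 0.19 with a median size of 0.10, against 0.35 for the members. Rps3 (-0.29, SE 0.06, limma, adjusted p = 0.0121) and Eef2 were lower, and 0 hosts were higher. Rpl27a had 0.01 where the Snora3 probe sets had -0.86 and -0.87, and Hspa8 had -0.01 where Snord14e had -0.83. The host had the larger value in 6 pairs, among them Tcp1 with -0.35 where Snora20 had 0.11, and Rps3 where Snord15b had 0.05. The median SE of the set difference was 0.29 over all 56 members and 0.08 over the 25 hosts, and noisier values give larger differences in size. Both probe sets of Snora3 and of Snora21 were counted as pairs. This comparison was not tested.

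**Figure D4:**
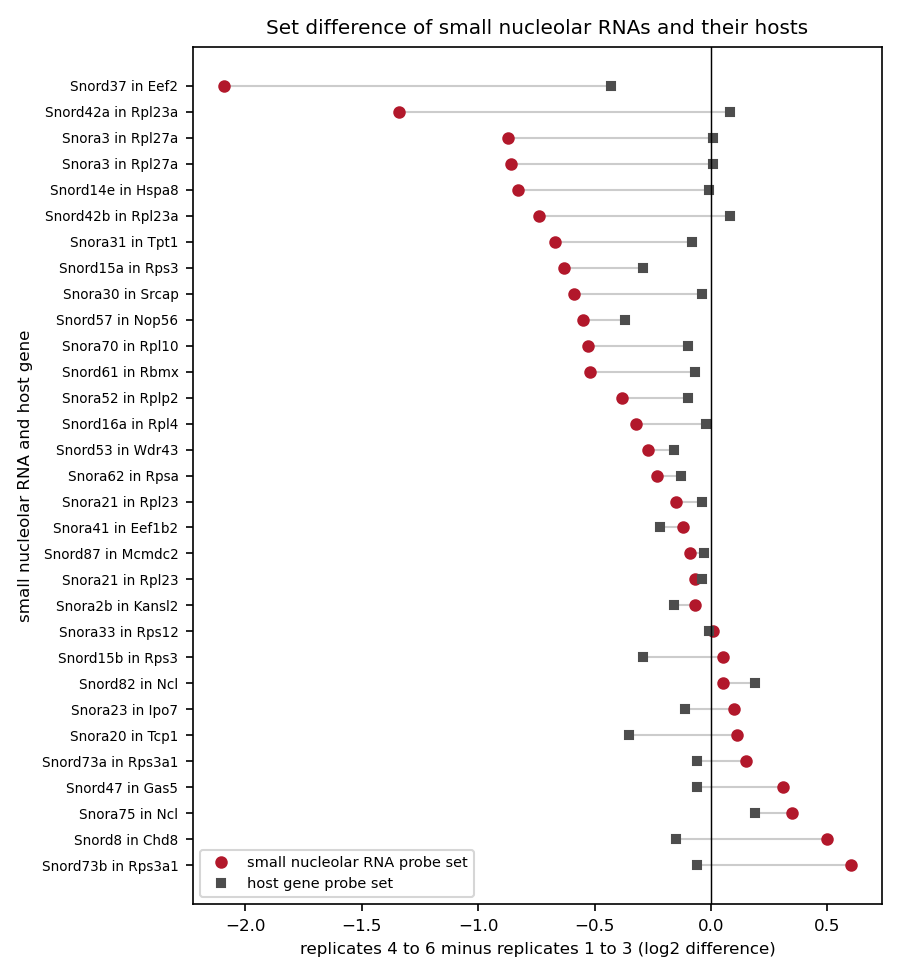
For each of 31 pairs, the circle gives the difference of the small nucleolar RNA probe set and the square that of its host gene, as replicates 4 to 6 minus replicates 1 to 3 on the log2 scale. Squares lie between -0.43 and 0.19, while circles reach -2.09 (Snord37).

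Genes for the proteins of the small nucleolar particles gave few calls. Of the 6 H/ACA particle genes 0 passed in either comparison (2 had an unadjusted limma p under 0.05 between the sets), and all 6 set differences were negative. Shq1 had -0.62, Gar1 -0.44 and Naf1 -0.39 between the sets, and Dkc1 (dyskerin) 0.24, Nhp2 0.18 and Nop10 0.14 between the genotypes. The 5 C/D particle genes also had 0 calls, with 1 at an unadjusted limma p under 0.05. Between the sets Nop56 had -0.37, Fbl (fibrillarin) -0.22 and Rrp9 -0.19, and between the genotypes Nop56 had 0.31, Rrp9 0.15 and Snu13 0.13. Of 17 genes of particle assembly, transport and trimming, Pih1d1, a component of the R2TP assembly complex, was lower in replicates 4 to 6 (-0.49, SE 0.12, limma, adjusted p = 0.0343). Between the genotypes 15 of these 17 differences were positive with a median of 0.212 and none passed. Exosc3 (0.47), Znhit3 (0.58) and Rpap3 (0.44) had an unadjusted limma p between 0.0382 and 0.0497.

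Host genes listed by name, whether or not a member lies in them, gave the following counts. Of 7 measured noncoding hosts, Snhg16 was lower in replicates 4 to 6 (-0.78, SE 0.12, limma, adjusted p = 0.00539). The genotype values with the smallest p were those of Snhg5 (0.49, limma, unadjusted p = 0.00457), Snhg11 (-0.22) and Gas5 (0.10), and none passed. Snhg5 averaged 9.87 ± 0.23 in Zbtb32-/- cells and 9.38 ± 0.26 in wild-type cells (SD, n = 6 each). Of 35 measured coding hosts, 3 were lower in replicates 4 to 6, namely Rps3, Eif4a2 (-0.67) and Eef2, and Rpl21 was higher (0.16, limma, adjusted p = 0.0326). Between the genotypes 29 of the 35 had a positive difference, with a median of 0.050, and none passed. The smallest p-values there were those of Rpl4 (0.07), Nop56 (0.31) and Rcc1 (0.26).

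Other structured small RNAs that are not guide RNAs of the nucleolus moved in both directions between the sets. Of 12 measured, 2 were lower and 1 was higher in replicates 4 to 6. Rpph1, the RNA of RNase P, was lower by a difference of -1.38 (SE 0.24, limma, adjusted p = 0.00890), and Rnu12, a minor spliceosome RNA, by -0.93 (SE 0.15, limma, adjusted p = 0.00597). Rnu7, which acts in histone mRNA processing, was higher by 1.41 (SE 0.23, limma, adjusted p = 0.00674). All 3 had sets that did not overlap. Between the genotypes 0 passed, and the values with the smallest p were 0.92 for Scarna17 (limma, unadjusted p = 0.00782), -0.22 for Rnu6 and -0.09 for Rn7sk.

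The rows that list several genes cannot be assigned to a single RNA, so they were fitted only in a model of all 35080 distinct rows. Among them, 24 rows with 7 distinct sets of values list Snord116l2, Snord116l1 and Gm26504. Snord116 genes encode C/D RNAs made from a paternally expressed imprinted cluster and studied mostly in brain. On these 7 probe sets replicates 4 to 6 read 6.58 to 9.32 and replicates 1 to 3 read 3.49 to 4.41, with no overlap. The difference ran from 3.78 to 4.21 (adjusted limma p between 8e-06 and 1.3e-05). The values of replicates 1 to 3 lay below 5.49, the 25th percentile of the table of single genes, where RMA compresses values, and no detection calls were used here. The differences are therefore differences of RMA values and not measured fold changes. In this model 5.11% of rows were higher and 3.63% were lower in replicates 4 to 6.

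Probe set 10564161, as an example of the 7, read 6.99, 7.93 and 7.38 in Zbtb32-/- replicates 4 to 6 and 7.95, 8.80 and 9.31 in wild-type replicates 4 to 6. Among replicates 1 to 3 the values were 3.84, 3.91 and 4.00 in Zbtb32-/- cells and 4.10, 3.79 and 3.49 in wild-type cells. Its set difference was 4.20 (95% interval 3.54 to 4.87). The genotype difference was -0.57 (SE 1.24) and did not pass (limma, unadjusted p = 0.655), in a model where the set difference adds to the spread. Computed within the sets it was -1.26 for replicates 4 to 6 and 0.12 for replicates 1 to 3. The product term was -1.37 (95% interval -2.41 to -0.34, limma, unadjusted p = 0.0144) and did not pass after adjustment. The 7 probe sets share their genes and correlate closely across the 12 arrays (lowest r 0.998), so they count as 1 observation. The row that lists the cluster's genes Snurf and Snrpn had a set difference of -0.20 (SE 0.15) that did not pass. Its neighbours Ndn (0.19), Magel2 (0.08), Mkrn3 (-0.04) and Peg12 (-0.22), chosen after the values were seen, did not pass either.

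**Figure D5:**
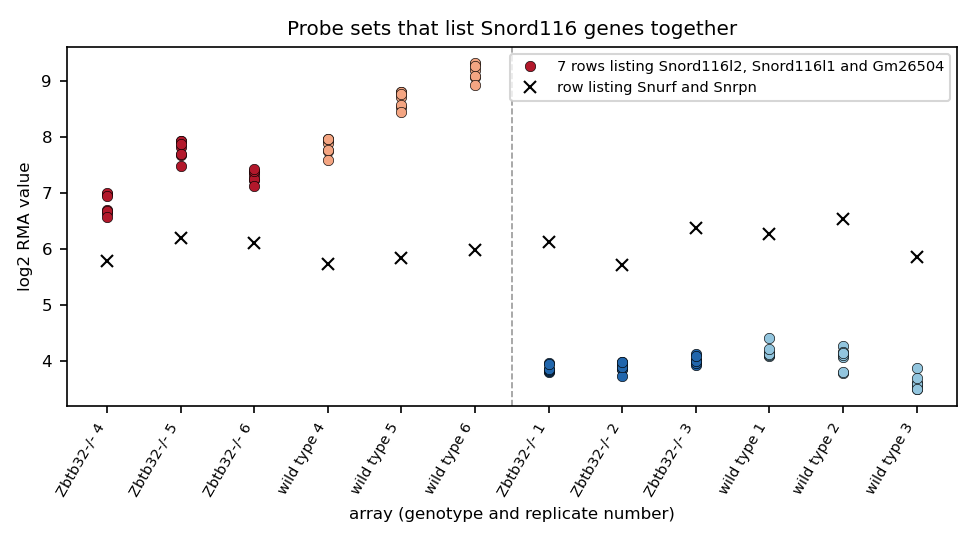
Log2 RMA values of the 7 distinct probe sets that list Snord116l2, Snord116l1 and Gm26504 (circles) and of the row that lists Snurf and Snrpn (crosses) on each of the 12 arrays. Circles lie between 6.58 and 9.32 on the 6 arrays of replicates 4 to 6 and between 3.49 and 4.41 on the 6 arrays of replicates 1 to 3, while crosses stay near 6.

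Of the other 11 distinct rows that list several genes, 3 were lower in replicates 4 to 6, all shared with a host. The row of Snord68 and Rpl13 had a difference of -1.52 (limma, adjusted p = 0.0132), that of Snora24 and Snhg8 of -0.91 (limma, adjusted p = 0.0324) and that of Snord34 and Rpl13a of -0.92 (limma, adjusted p = 0.0360). The row of Snord34 and Rpl13a read 10.70, 10.75 and 9.51 in Zbtb32-/- replicates 4 to 6 and 11.04, 10.81 and 10.12 in wild-type replicates 4 to 6. Its values in replicates 1 to 3 were 11.66, 11.40 and 11.24 in Zbtb32-/- cells and 11.26, 11.70 and 11.19 in wild-type cells, so its sets did not overlap. The row of Snora24 and Snhg8 is the only one of the 3 lower rows from the H/ACA class. For the row of Snora43 and Snhg7 the sets did not overlap in the other direction. Its difference was 0.29 and did not pass (limma, adjusted p = 0.116). Over all probe sets that name 1 gene, 2.35% lay apart upward and 2.24% downward.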

How the data were processed

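RNA from the sorted cells went through WT Pico amplification before hybridisation, per the labels' protocols. What the authors deposited is 1 log2 value per probe set and array, from RMA run in the Expression Console software, per the submitters' processing notes. Neither labels nor notes say if the 12 arrays went through RMA in 1 run. The RMA step makes the distributions of the arrays alike, compresses low values and hides differences in total RNA.

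Symbols came from the platform annotation (21789 of 35556 probe sets name 1 gene, 1621 several, 12146 are unnamed here). Rows with identical values were kept once, which left 21713. These were fitted with limma 3.58.1 in R 4.3.3 (lmFit, eBayes with a trend) with no filter on low values, with Benjamini-Hochberg adjustment over all of them. The models were genotype alone, replicate set with genotype as covariate, and both with their product. Of the 56 members, 48 had a mean above 5.49, the 25th percentile. Hosts were genes whose RefSeq span holds a member, without regard to strand. The code was tested on simulated data. Tables were joined in Python 3.11.15 with pandas 2.3.3, and plots were made with matplotlib 3.10.9.

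The members, gene lists and the split into replicates 1 to 3 and 4 to 6 were chosen with earlier results of these data known. By rule the text names the Y RNAs, the 10 members of each sign with the smallest p in the genotype and set fits, the 5 with the largest SD and the 3 with the smallest p for the product term. From each gene list other than the cell type markers it names, for the genotype and set fits, the genes that passed or else the 3 with the smallest p. Alternatives were renewed quantile normalization, median centring, filters, variance settings, array weights, blocks, left-out arrays and fits within sets or genotypes. Same-numbered arrays of the 2 genotypes gave correlations of their deviations from the group means between 0.032 and 0.462. Neither these values nor the labels decide whether the numbers pair the samples. The series text calls the replicates biological without naming animals or pools, so p-values measure the spread between these samples.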

Additional observations from a re-analysis of the deposited data

Results flagged for a closer look

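In 74 groups of 6 arrays (named members by genotype), 6 had an array far from the other 5. The rule used is met by about 1 in 20 groups of independent normal values. These members were named from these same data, in part for a large SD, and some probe sets have nearly the same values. The count can therefore not be compared with that rate. Snora20 read 7.96 in Zbtb32-/- replicate 4, against 4.63 to 5.32 in the other Zbtb32-/- arrays. In Zbtb32-/- replicate 6, Snora52 read 6.51 (others 7.42 to 7.94) and Snora44 read 6.16 (others 7.34 to 8.04). Among wild-type arrays, Snord15a read 8.32 in replicate 2, far above the other 5, Snora23 read 7.36 in replicate 4 (others 9.14 to 9.86) and Snord61 read 3.46 in replicate 6 (others 7.46 to 9.65).

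The 7 distinct probe sets that list Snord116l2, Snord116l1 and Gm26504 enter no comparison of single genes. Their values were higher in replicates 4 to 6 than in replicates 1 to 3 on every array, by 4.20, 3.93, 3.84, 3.94, 3.78, 4.21 and 4.03.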

How the results depend on the processing

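The counts of members that passed for genotype and for its product with the set were 0 under every alternative run. At an unadjusted p under 0.05 the genotype fit gave 4 members, 2 with array weights, 8 with the replicate block, 1 without wild-type replicates 2 and 6, and 1 to 7 on leaving out single arrays. Single arrays that moved this count were Zbtb32-/- replicates 4 and 5 and wild-type replicate 4 (2 each without them), wild-type replicate 2 (1), and Zbtb32-/- replicate 6 and wild-type replicate 1 (7 each). The labels do not say that same-numbered arrays are pairs. Not every array correlated best with its own number, and the replicate block brought no member past the adjusted threshold for genotype. Members called lower between the sets were 6, 1 within wild-type cells, 1 within Zbtb32-/- cells and 2 to 11 on leaving out single arrays; members called higher were 0, and 0 to 1 (Snord8) on leaving out single arrays. Snord118 passed under the alternatives run for it except within Zbtb32-/- cells. Snord37 passed under those run for it except within either genotype; its mean lies below the low filter, so it has no value under the filtered settings. Snord49a did not pass after renewed quantile normalization (limma, adjusted p = 0.0504). Snord58b (10456717) did not pass after renewed quantile normalization (limma, adjusted p = 0.0590), median centring (0.0537), the low filter (0.0539), 1 probe set a gene (0.0511), all probe sets (0.0631), no variance trend (0.0589) or a robust prior (0.0610). With array weights Snord49b (limma, adjusted p = 0.0487), Snord33 (0.0372) and the other Snord58b probe set, 10414659 (0.039), also passed as lower. The class differences moved by less than 1 SD. Signs turned for 32 values of named members, none of which had passed. Within replicates 1 to 3 the genotype difference was 0.16 for Rny1, 0.14 for Rny3, -0.30 for Snora20 and -0.59 for Snord73b. Within replicates 4 to 6 it was 0.05 for Snord95, 0.24 for Snora16a, 0.02 for Snord37, and 0.61 and 0.62 for the Snord58b probe sets. Without wild-type replicates 2 and 6 the Snord58b values were 0.23 and 0.24. Within wild-type cells the set difference was -0.03 for Snora75, -0.62 for Snord73b and -0.32 for Snora23, and within Zbtb32-/- cells -0.15 for Snord85 and -0.23 for Snora44. Without wild-type replicates 2 and 6 it was -0.03 for Snord85 and -0.15 for Snord73a. On leaving out single arrays the genotype difference ran from -0.20 to 0.03 for Snora16a, -1.54 to 0.15 for Snord61, and -0.60 to 0.35 and -0.59 to 0.34 for Snord58b. The set difference ran from -0.08 to 0.23 for Snord85, -0.08 to 0.38 for Snord73a, -0.07 to 0.36 for Snora44 and -0.17 to 0.50 for Snora23. The causes were not tested.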

Other observations

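The row that lists Rn7s2 and Rn7s1, genes of the RNA of the signal recognition particle, was chosen after its values were seen. It read 12.69, 12.70 and 12.18 in Zbtb32-/- replicates 4 to 6 and 13.06, 12.34 and 13.28 in wild-type replicates 4 to 6. Replicates 1 to 3 read 14.00, 14.06 and 14.02 in Zbtb32-/- cells and 13.98, 14.06 and 13.97 in wild-type cells. The difference was -1.31 (SE 0.15, limma, adjusted p = 0.000536), with no overlap between the sets. Like Rpph1 and Snord118, this RNA has a gene of its own. Rny3, which lies in no host by position, did not pass, and Rnu7 was higher in replicates 4 to 6. A link between the set difference and the kind of gene was not tested.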
